A study of Mus musculus with 12 samples.

Results

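The 10 genes described here make the immunoproteasome and load peptides onto MHC class I molecules: Psmb8, Psmb9, Psmb10, Tap1, Tap2, Tapbp, B2m, H2-K1, H2-D1 and Nlrc5. They were taken by symbol from the 51467 genes of the table, and the list was chosen from the readout, because Psmb8 was much higher in knockout cells. The knockout against wild-type values of Psmb8 are therefore a description with no test. Psmb8 is left out of every count of changed genes below, while counts of sequence matches and of alternative values include it.

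The cells were mouse embryonic stem cells (ESCs) grown in serum, LIF and the 2i inhibitors, either wild-type (WT, line V6.5) or lacking Dgcr8 (KO), whose product is needed to process primary microRNA transcripts. Cells of both genotypes received 500 uM 4-thiouridine (4sU) for 30 min. Captured 4sU RNA measured nascent transcription, and RNA depleted of ribosomal RNA measured steady-state (total) levels, with 3 libraries in each of the 4 groups. Each genotype was a single line, so a difference between lines and a difference between genotypes cannot be told apart, and p-values measure only the spread between these libraries. In bulk RNA, fewer cells with a transcript and less of it per cell cannot be told apart either.

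The proteasome is the barrel-shaped protease that cuts proteins into peptides. Its constitutive catalytic subunits can be replaced by the immunosubunits LMP7, LMP2 and MECL1, which Psmb8, Psmb9 and Psmb10 encode, and the resulting immunoproteasome favours peptides that suit MHC class I. The TAP transporter carries them into the endoplasmic reticulum, where tapasin places them on a class I heavy chain paired with beta-2-microglobulin. NLRC5 is a transactivator of these genes, interferons are their usual inducers, and ESCs are known for low surface class I.

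Total counts ranged from 4593914 to 9295245 per library. Dgcr8 itself lay at 92.5 to 111 CPM (counts scaled to library size, with TMM factors) in WT total RNA and at 32.04 to 34.1 CPM in KO, and fell from 107 to 118 CPM to 71.2 to 86.8 CPM in nascent RNA. These counts cover the whole gene, so they do not isolate the deleted part. The sum of 10 ESC markers was alike in total RNA, with 4794 to 5024 CPM in WT and 4760 to 4903 CPM in KO, and higher in KO nascent RNA, with 5451 to 5549 CPM in WT and 6236 to 6883 CPM in KO. The 10 haematopoietic markers, which immune cells with high class I would bring, summed to 55.7 to 57.9 CPM in WT total RNA and 90.6 to 97.6 CPM in KO. Within that list Lyz2 was at 0, and Ptprc, Cd52 and Tyrobp had at most 3 counts in any single library of the 12. Laptm5 and Cd3e carried the rise, with log2 changes of 0.62 and 1.76. The 10 fibroblast markers summed to 16.7 to 19.2 CPM in WT total RNA and 12.7 to 13.3 CPM in KO, with Postn and Dcn at 0. The 10 extraembryonic endoderm markers summed to 104 to 117 CPM in WT total RNA and 47.5 to 52.8 CPM in KO. They did not move together. Of the 3 tested, Lama1 fell (log2 change -1.46), Pdgfra rose (2.20) and Gata4 was at 0.36 (limma, adjusted p = 0.0990). Pdgfra passed the filter on low counts only through KO libraries. The 8 trophoblast markers summed to 63.8 to 77.1 CPM in WT total RNA and 44.4 to 48.5 CPM in KO. The part of these other genes in the results below was not tested.

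Psmb8 encodes LMP7, the immunosubunit that takes the place of Psmb5. It lies on chromosome 17 at 34197790 to 34201454 (mm10, plus strand), inside the MHC. WT total libraries held 1, 0 and 1 reads of it, and each WT 4sU library held 0. KO total libraries held 125, 100 and 73 reads, and KO 4sU libraries held 21, 24 and 22. In CPM this was 14.1, 12.97 and 10.5 in KO total RNA and 4.20, 4.58 and 4.19 in KO 4sU RNA. No KO library came near a WT library in either RNA. Summed over libraries and corrected for depth, the total RNA ratio of KO to WT was 147, with a 95% counting interval of 40.4 to 1221. For nascent RNA the KO level was at least 24.0-fold higher than the floor of 3 counts over the WT group. Intervals and floors cover counting error only.

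**Figure D1:**
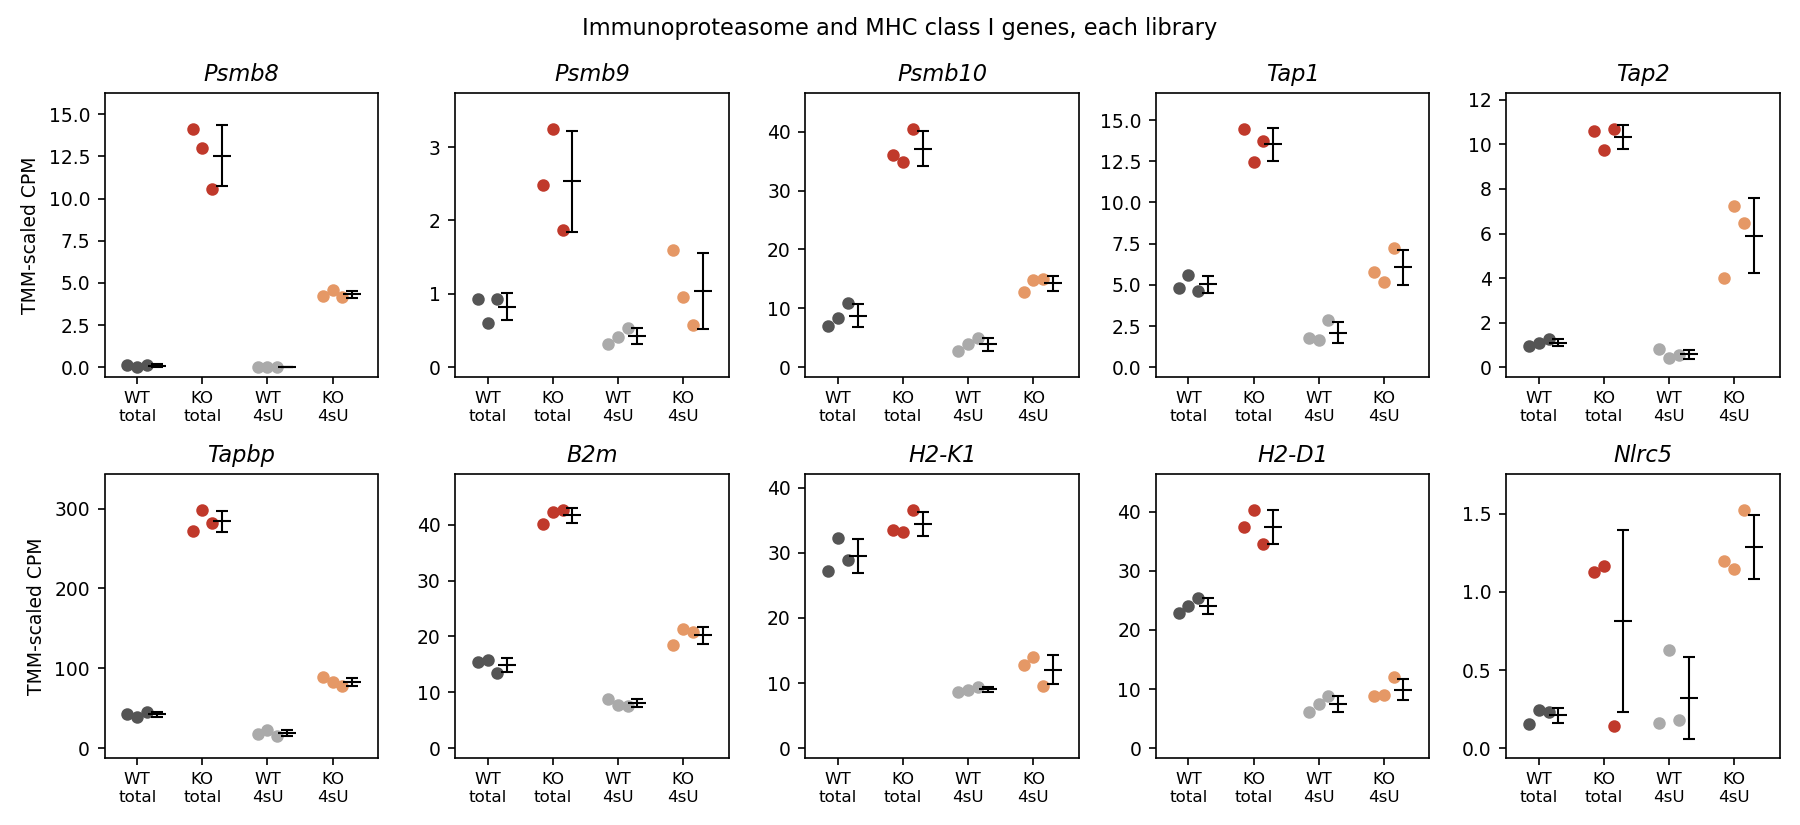
TMM-scaled CPM of the 10 genes in each of the 12 libraries (points, 3 per group), on linear axes of different range. The horizontal mark and bars are the mean and SD (n = 3). Psmb8 lies between 0 and 0.156 CPM in WT total RNA and between 10.5 and 14.1 CPM in KO, whereas H2-K1 goes only from 27.2 to 32.3 CPM up to 33.2 to 36.5 CPM.

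The RefSeq start of Psmb8, which lies downstream of the outer bound given above, carries 1 match to the gamma-activated site spelled TTCNNNGAA. The RefSeq (GRCm38.p6) promoter windows used here are 300 bases long, mostly upstream of the start, and the Psmb8 window is shown because its gene went from near 0 to clear expression. Capitals mark the match, which begins 97 bases before the start.
Psmb8 promoter (chr17:34197945-34198244, plus strand): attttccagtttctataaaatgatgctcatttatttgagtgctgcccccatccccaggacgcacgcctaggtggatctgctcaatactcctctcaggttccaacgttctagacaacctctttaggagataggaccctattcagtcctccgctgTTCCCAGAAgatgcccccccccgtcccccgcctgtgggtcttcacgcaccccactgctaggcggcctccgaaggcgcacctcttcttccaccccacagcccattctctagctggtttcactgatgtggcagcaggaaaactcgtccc
Of 32851 promoters in the table, 8.3% hold TTCNNNGAA on either strand, and Psmb8 was the 1 gene with it among the 8 listed genes that have an entry. This is a match of letters, not a site shown to be bound.

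The other immunosubunits also had higher levels in KO, at very different abundance. Psmb10, which encodes MECL1 and lies on chromosome 8 at 105935739 to 105938444 (minus strand), measured 7.03, 8.29 and 10.9 CPM in WT total RNA and 36.1, 34.8 and 40.4 CPM in KO. Its 4sU libraries gave 2.73, 3.97 and 4.98 CPM in WT and 12.8, 14.9 and 15.0 CPM in KO, again without overlap. The log2 change was 2.06 ± 0.14 (SE) in total RNA (adjusted p = 3.01e-14) and 1.91 ± 0.25 in nascent RNA (adjusted p = 9.45e-08).

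Psmb9, which encodes LMP2 and lies on chromosome 17 at 34181988 to 34187764 (minus strand), stayed scarce. WT total libraries held 6, 5 and 8 reads and KO total libraries 22, 25 and 13, a ratio of 3.12 with a 95% counting interval of 1.84 to 5.54. Nascent RNA had 2, 2 and 3 reads in WT and 8, 5 and 3 in KO, a ratio of 2.45 with an interval of 0.954 to 7.05. All 3 KO libraries lay above all 3 WT libraries on the CPM scale in both RNAs, for which the exact two-sided permutation test over libraries gives p = 0.1, the smallest possible with 3 against 3. Psmb9 did not pass the filter on low counts. In the limma fit without that filter its adjusted p was 0.00207 in total RNA and 0.166 in nascent RNA.

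Psmb9 and Tap1 face each other head to head, and their annotated starts are 226 bases apart. Their promoter windows share 275 bases, so the window of Tap1 is shown for both genes. It has no match to the IRF element, the gamma-activated site or the NF-kB consensus, hence no capitals.
Tap1 promoter (chr17:34187306-34187605, plus strand): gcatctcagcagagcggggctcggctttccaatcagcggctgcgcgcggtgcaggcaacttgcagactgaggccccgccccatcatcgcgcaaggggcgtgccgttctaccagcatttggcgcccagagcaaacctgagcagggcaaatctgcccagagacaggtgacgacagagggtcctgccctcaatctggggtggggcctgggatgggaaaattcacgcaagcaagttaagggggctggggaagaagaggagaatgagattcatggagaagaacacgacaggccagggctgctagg
The 2 genes differed in abundance by more than their spread, with 0.611 ± 0.138 CPM per kilobase of exon for Psmb9 and 1.70 ± 0.172 for Tap1 in WT total RNA (mean ± SD, n = 3).

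Set against their constitutive counterparts, the immunosubunits made up a larger share in KO. Levels between genes were compared per exon length. Psmb8 stood at 0.234%, 0% and 0.160% of Psmb5 in WT total libraries and at 22.98%, 24.5% and 20.8% in KO. Psmb10 went from 2.54%, 2.72% and 4.02% of Psmb7 to 16.8%, 16.1% and 18.6%. Psmb9 remained below 1% of Psmb6 in every total library, at 0.180%, 0.113% and 0.177% in WT and 0.752%, 0.952% and 0.539% in KO. The exact two-sided permutation test over libraries gives p = 0.1 for both Psmb10 and Psmb9, again the smallest it can give. Both sides of these ratios moved. Psmb5, Psmb6 and Psmb7 fell in KO total RNA by 0.32, 0.64 and 0.40 on the log2 scale (adjusted p = 0.00589, 3.83e-11 and 9.45e-08). In nascent RNA only Psmb6 of the 3 passed the test, with a log2 change of -0.61, against 0.20 for Psmb5 and -0.07 for Psmb7.

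**Figure D2:**
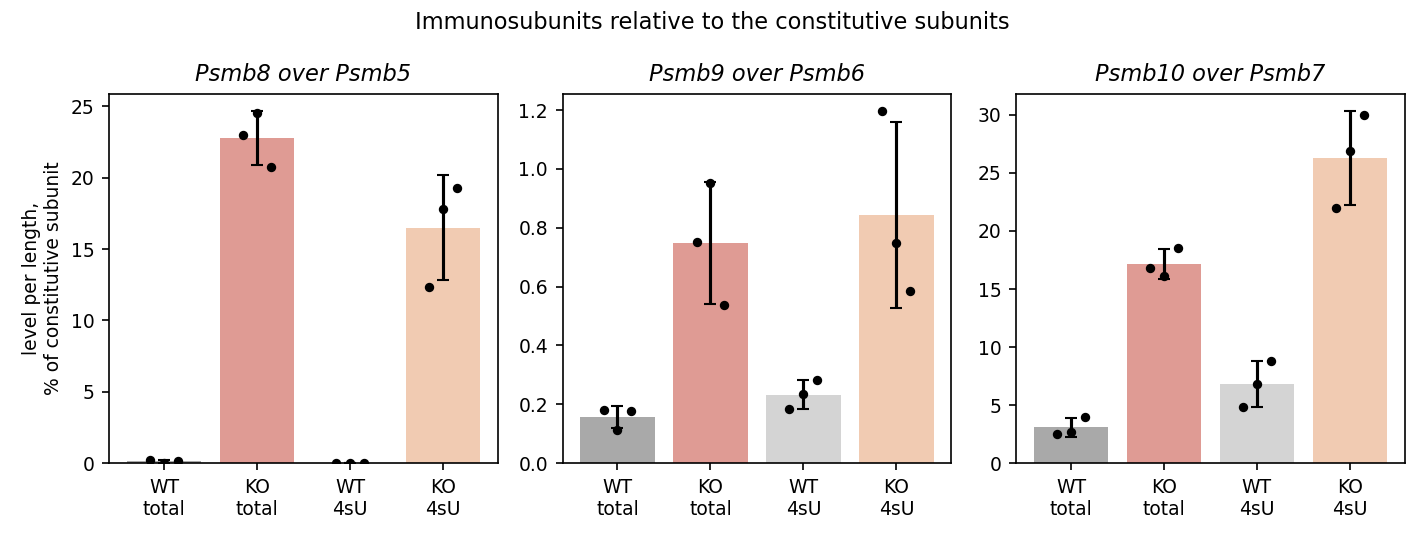
Level per exon length of each immunosubunit as a percentage of the constitutive subunit it replaces, by library (points), with the group mean (bar) and SD (n = 3), from 0. Psmb8 and Psmb10 reach means of 22.8% and 17.2% of their counterparts in KO total RNA and Psmb9 reaches 0.748%. The 3 panels have different ranges.

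The peptide transporter subunits both rose. Their genes flank Psmb8 on the plus strand of chromosome 17, Tap1 at 34187553 to 34197225 and Tap2 at 34203527 to 34216321. Tap1 gave 4.84, 5.61 and 4.65 CPM in WT total RNA and 14.4, 12.5 and 13.7 CPM in KO, and 1.77, 1.67 and 2.85 against 5.80, 5.15 and 7.23 CPM in nascent RNA. Its log2 changes were 1.42 ± 0.17 in total (adjusted p = 1.20e-08) and 1.51 ± 0.31 in nascent RNA (adjusted p = 9.49e-05). The partner subunit Tap2 was nearly silent in WT, with 0.937, 1.10 and 1.28 CPM in total RNA, and reached 10.6, 9.73 and 10.7 CPM in KO. Nascent Tap2 measured 0.804, 0.418 and 0.534 CPM in WT and 4.00, 7.25 and 6.47 CPM in KO. Tap2 changed by 3.15 ± 0.31 in total and 3.13 ± 0.45 in nascent RNA. The change in total RNA was 2.68-fold for Tap1 and 8.85-fold for Tap2, a difference between genes that was not tested, and in KO total RNA they lay at 4.58 ± 0.341 and 3.00 ± 0.154 CPM per kilobase. Tap2, like Psmb8, passed the filter of 3 CPM in 3 libraries only through its KO libraries. The filter itself thus favours a rise of Tap2, whose change is given as a description.

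Tapbp, the tapasin gene at 33919332 to 33929288 on chromosome 17 (plus strand), became the most abundant of the 10 per length. It went from 42.5, 39.1 and 45.5 CPM in WT total RNA to 272, 298 and 281 CPM in KO. Nascent RNA gave 18.3, 22.6 and 15.8 CPM in WT and 88.6, 82.6 and 78.0 CPM in KO. The log2 change was 2.74 ± 0.07 in total (adjusted p = 2.22e-24) and 2.16 ± 0.12 in nascent RNA (adjusted p = 2.34e-16). The change in total RNA exceeded that in nascent RNA by 0.59 ± 0.14 (adjusted p = 0.00269 for the interaction of assay and genotype), and this passed the test in none of the other 6 genes tested. With cultures as blocks in limma, the difference was again 0.59 and its adjusted p was 0.00159. Without WT replicate 2 the difference was 0.40 and its adjusted p was 0.0739.

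B2m encodes the light chain common to class I molecules and lies on chromosome 2 at 122147686 to 122153083 (plus strand). It rose 2.80-fold in total RNA. Its 3 WT libraries held 15.5, 15.7 and 13.5 CPM and its KO libraries 40.2, 42.2 and 42.6 CPM. Nascent B2m went from 8.85, 7.74 and 7.47 to 18.4, 21.4 and 20.7 CPM. The log2 changes were 1.49 ± 0.10 (adjusted p = 3.09e-14) and 1.32 ± 0.16 (adjusted p = 2.64e-08). The B2m window is shown because it alone among the 8 holds the IRF element spelled GAAANNGAAA, here GAAACTGAAA at 139 bases before the start, beside an NF-kB match. Capitals mark both.
B2m promoter (chr2:122147437-122147736, plus strand): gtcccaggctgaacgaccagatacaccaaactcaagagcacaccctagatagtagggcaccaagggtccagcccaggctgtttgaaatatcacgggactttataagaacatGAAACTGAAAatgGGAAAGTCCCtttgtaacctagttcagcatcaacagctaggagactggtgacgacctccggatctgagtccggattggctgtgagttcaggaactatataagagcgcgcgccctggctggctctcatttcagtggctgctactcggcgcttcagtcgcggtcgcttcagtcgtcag
Of all promoters, 3.44% hold GAAANNGAAA and 6.93% the NF-kB consensus, on either strand. Variants of the IRF element that depart from this spelling were not searched for, so other windows may hold them.

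The classical heavy chains moved least. H2-K1 lies at 33996017 to 34000333 (minus strand) and H2-D1 at 35262730 to 35267499 (plus strand) of chromosome 17. H2-K1 measured 27.2, 32.3 and 28.9 CPM in WT total RNA and 33.4, 33.2 and 36.5 CPM in KO, a log2 change of 0.21 ± 0.09 (adjusted p = 0.0440). With edgeR the adjusted p was 0.0579 and with DESeq2 0.0818. Leaving out a culture gave an adjusted p of 0.195 without WT replicate 1, 0.127 without WT replicate 3, 0.0576 without KO replicate 1 and 0.101 without KO replicate 3. In nascent RNA H2-K1 went from 8.69, 8.99 and 9.43 to 12.8, 13.9 and 9.52 CPM, a change of 0.40 ± 0.18 (adjusted p = 0.0606, and 0.00965 without KO replicate 3). H2-D1 rose from 22.8, 24.0 and 25.4 to 37.4, 40.2 and 34.5 CPM in total RNA, by 0.63 ± 0.10 (adjusted p = 1.03e-06). Its nascent values of 6.11, 7.53 and 8.89 CPM in WT and 8.80, 8.97 and 11.99 CPM in KO overlapped, with a change of 0.41 ± 0.20 (adjusted p = 0.0789, and 0.0477 without WT replicate 3). The class I heavy chains are near-identical genes and reads were kept only where they mapped uniquely, so their levels are uncertain. The H2-K1 window is shown as the gene with the smallest change, and its capitals mark the NF-kB consensus, which H2-D1 also has.
H2-K1 promoter (chr17:34000298-34000597, minus strand): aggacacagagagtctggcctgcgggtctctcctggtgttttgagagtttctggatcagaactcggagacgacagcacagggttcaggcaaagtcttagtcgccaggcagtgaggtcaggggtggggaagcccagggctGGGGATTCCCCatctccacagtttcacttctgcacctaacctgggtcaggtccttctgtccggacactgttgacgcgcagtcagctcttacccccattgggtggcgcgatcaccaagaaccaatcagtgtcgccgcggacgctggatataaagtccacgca
Of the 8 windows, 3 have the NF-kB consensus (B2m, H2-K1 and H2-D1), 6 a CCAAT box and 5 the TGACG core of a cyclic AMP element, against 37.4% and 20.8% of all promoters for the last 2. Psmb9 and Tap1 share most of a window, so their matches are not separate. The H2-K1 and H2-D1 windows are much alike in sequence around their matches, so these are not separate either.

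Nlrc5, the transactivator gene on chromosome 8 at 94434391 to 94527272 (plus strand), was too scarce for the filter. WT total libraries held 1, 2 and 2 reads and KO total libraries 10, 9 and 1, so the groups overlapped because of KO replicate 3. Nascent reads were 1, 3 and 1 in WT and 6, 6 and 8 in KO, a ratio of 4.29 with a 95% counting interval of 1.56 to 14.6. Fitted without the filter, limma gave adjusted p = 0.125 in total RNA and 0.0259 in nascent RNA, and edgeR gave 0.0240 and 0.0178.

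Counted together and without Psmb8, 7 of the 10 genes could be tested. In total RNA 5 of the 7 were called higher in KO (limma, adjusted p under 0.05 and log2 change over 1) and none lower, against 9.33% of all 14033 genes called higher and 7.82% lower. All 7 had an adjusted p under 0.05, which 63.9% of all genes had. In nascent RNA 5 were called higher and none lower, where 9.5% of genes were called higher and 5.27% lower, and 5 of 7 passed the adjusted p, as 56.3% of genes did. The 5 were the same in both: Psmb10, Tap1, Tap2, Tapbp and B2m. The median log2 change over the 7 was 1.49 in total and 1.51 in nascent RNA, against -0.09 and -0.02 over all genes. Among the 9 genes other than Psmb8, all 3 KO libraries lay above all 3 WT libraries for 8 in total RNA, where 29.2% of genes did so, and for 8 in nascent RNA, where 29.6% did. Nlrc5 and H2-D1 were the exceptions. Those shares are of genes that passed the filter, which Psmb9 and Nlrc5 did not. Tap2, which is among the 5 called higher, passed the filter only through KO, so the filter itself favours its call. These counts describe the genes that could be tested and no more. For stability, read as total over 4sU signal, 0 of 7 were called in either direction, where 0.791% of genes were called higher and 0.969% lower, and 1 of 7 passed the adjusted p alone, as 16.1% of genes did (5.02% higher and 11.1% lower). At an unadjusted p under 0.05 that 1 gene, Tapbp, was again the only one of the 7, and neither edgeR nor DESeq2 called any.

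**Figure D3:**
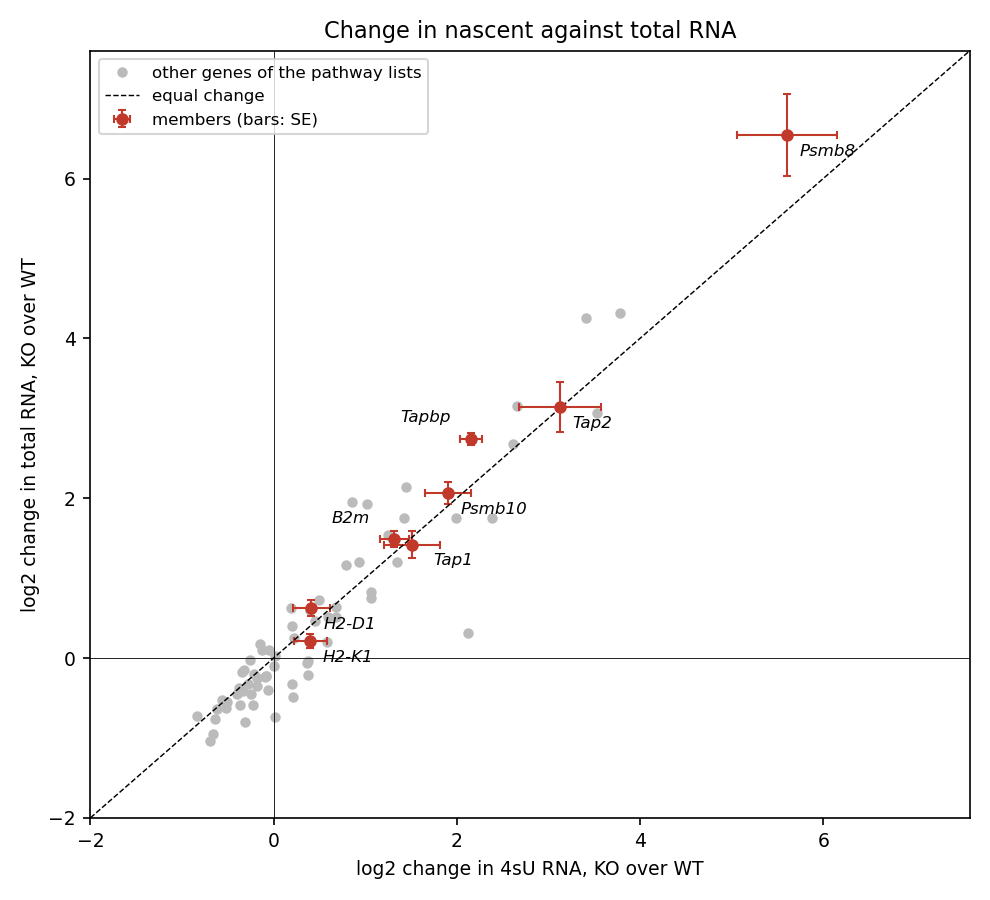
log2 change from WT to KO in 4sU RNA (x) and in total RNA (y), with SE bars for the 8 genes that passed the filter. Grey points are the other genes of the pathway lists, and the dashed line marks equal change. Tap2 lies on the line at 3.13 and 3.15, Tapbp lies above it at 2.16 and 2.74, and Psmb8, which chose the list, lies farthest out, where its fitted position rests on 0 to 1 reads per WT library and is no bound.

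Dgcr8 KO cells lack microRNAs that need this processing step, so the longest annotated 3′ UTR of each gene (GENCODE M21) was searched for the site of the ESC-specific cell cycle (ESCC) microRNAs. Mature sequences from RefSeq (GRCm38.p6) show the seed they share at bases 2 to 8, in capitals.
mmu-miR-291a-3p: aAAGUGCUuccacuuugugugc
mmu-miR-294-3p: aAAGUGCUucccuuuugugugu
mmu-miR-295-3p: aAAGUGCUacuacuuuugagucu
The site GCACTT, which pairs with all but the last of these bases, was found in the 3′ UTR of 0 of the 10 genes. Of 11812 genes with a 3′ UTR among those tested, 33.8% hold it, and 21.2% hold it within a longer site of 7 bases. The 3′ UTRs of the 10 genes are 55 to 1197 bases long, against a median of 1192 bases over the genes tested. These shares were not corrected for length.

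Ordered by level per exon length, the 10 genes changed places between genotypes. In WT total RNA the order was H2-K1 (17.96 ± 1.59 CPM per kilobase), B2m (17.3 ± 1.43), Tapbp (14.6 ± 1.11), H2-D1 (11.5 ± 0.631), Psmb10 (6.67 ± 1.52), Tap1, Psmb9, Tap2 (0.321 ± 0.0496), Psmb8 and Nlrc5. The libraries of H2-K1 overlapped those of B2m, those of B2m overlapped those of Tapbp, and those of Psmb8 overlapped those of Nlrc5, so these neighbours did not differ beyond their spread. In KO total RNA Tapbp led with 98.1 ± 4.51 CPM per kilobase, followed by B2m (48.4 ± 1.49), Psmb10 (28.3 ± 2.25), H2-K1 (20.95 ± 1.13), H2-D1 (17.8 ± 1.36) and Psmb8 (7.70 ± 1.12). Tap1, Tap2, Psmb9 (1.88 ± 0.507) and Nlrc5 (0.100 ± 0.0714) came last, and no neighbours in this order overlapped. H2-K1 thus lay above Tapbp in all 3 WT libraries and below it in all 3 KO libraries.

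Total over 4sU signal in WT was computed for the 7 genes tested. On the log2 scale it was 1.60 ± 0.11 for H2-K1 and 1.59 ± 0.20 for H2-D1 (mean ± SD over 3 cultures), at percentiles 93.9 and 93.8 of all genes tested. B2m, at 0.79 ± 0.10, lay at percentile 75.0, and Tapbp, at 1.08 ± 0.38, at 83.2. Tapbp rose to 1.77 ± 0.14 in KO, percentile 95.7. These percentiles order genes of different length and intron content.

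The proteasome core did not follow the immunosubunits. All 11 other 20S core subunits fell in total RNA at an adjusted p under 0.05, and none was called. Their median log2 change was -0.45, against -0.09 over all genes. In nascent RNA all 11 changes were negative, and 9 of the 11 passed the adjusted p. At the same adjusted p 36.7% of all genes fell in total RNA and 28.0% in nascent RNA. The largest fall was that of Psmb3, by 0.77. The PA28 activator, a cap that opens the barrel and is itself interferon-induced, went the other way. Its alpha subunit gene Psme1 rose from 41.4, 44.4 and 42.2 to 99.7, 99.3 and 94.7 CPM (log2 change 1.20 ± 0.07), and its beta subunit gene Psme2 from 8.43, 6.71 and 8.13 to 24.9, 24.8 and 28.7 CPM (1.75 ± 0.14). The other 7 activators and assembly factors all had negative changes in total RNA, and 5 of them passed the adjusted p. Among the 5 were the chaperones Pomp (-0.80), which assists proteasome assembly, Psmg1 (-0.96) and Psmg3 (-0.73).

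Of the 9 peptide loading and trimming factors, 2 were called higher in total RNA and none lower, where 9.33% and 7.82% of all genes were, with a median log2 change of 0.10. Erap1, the aminopeptidase that trims peptides in the endoplasmic reticulum, went from 4.37, 5.97 and 3.95 CPM to 91.8, 90.3 and 91.7 CPM in total RNA. Its log2 change was 4.26 ± 0.16 (adjusted p = 1.55e-20), with 3.41 ± 0.25 in nascent RNA. Tapbpl, a tapasin-like editor, rose by 1.54 ± 0.40 and passed the filter only through KO libraries. The general chaperones moved little, with 0.10 for Calr, -0.17 for Canx and 0.18 for Pdia3.

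**Figure D4:**
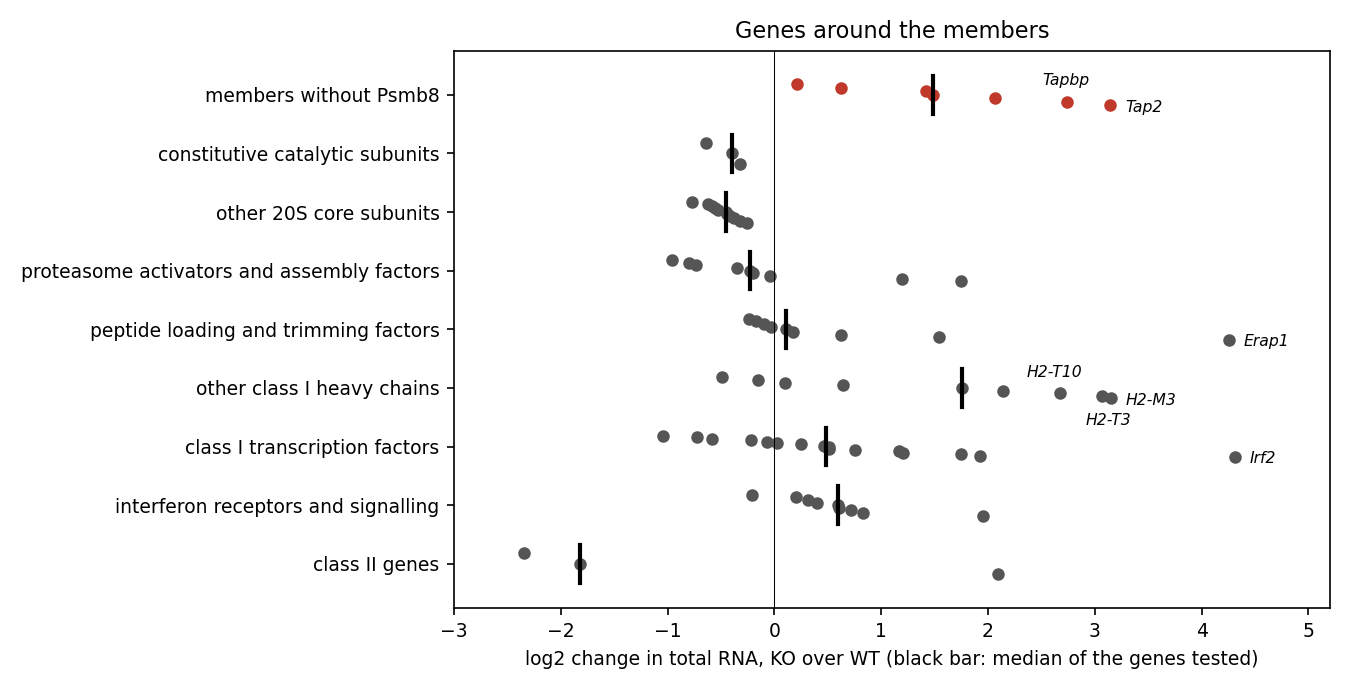
log2 change in total RNA from WT to KO of the genes tested in each list, with the median as a black bar. The 7 tested members other than Psmb8 have a median of 1.49, the other 20S core subunits one of -0.45. Erap1 and Irf2 lie farthest right, at 4.26 and 4.32.

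Among 20 other class I heavy chain genes, 9 could be tested, and 5 were called higher in total RNA, none lower, against 9.33% and 7.82% of all genes: H2-M3 (3.15), H2-T3 (3.07), H2-T10 (2.68), H2-Q4 (2.14) and H2-T22 (1.76). All 5 passed the filter only through KO libraries, so the filter itself favours a rise and their count is a description. H2-M3, which presents formylated peptides, went from 1.09, 0.732 and 1.05 CPM to 8.35, 8.69 and 9.67 CPM. H2-T3 went from 2.65, 1.34 and 2.90 to 21.3, 17.8 and 16.6 CPM. The 11 that could not be tested and the limits of unique mapping keep these uncertain. Class II genes, which serve antigen presentation from outside the cell, did not move together, with H2-DMb1, which passed the filter only through KO, at 2.09, H2-Ab1, which passed it only through WT, at -2.35 and H2-Eb1 at -1.82.

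Of the 16 transcription factors known for class I genes, 5 were called higher, 4 of which are named here, and 1 lower in total RNA, against 9.33% and 7.82% of all genes. The median log2 change over the 16 was 0.49. Irf2 rose by 4.32 ± 0.53 in total RNA, from 0.624, 0.122 and 0.116 to 5.87, 5.32 and 5.05 CPM, and passed the filter only through its KO libraries. In nascent RNA, where it was more abundant, it rose by 3.79 ± 0.28, from 2.09, 2.09 and 2.49 to 33.8, 34.7 and 27.4 CPM. Irf9 rose by 1.93, Irf1 by 1.20 and Rfx5, a subunit of the factor that binds class I and class II promoters, by 1.17. Nfyb fell by 1.04. Stat2 was at 0.03 (adjusted p = 0.834). Of 9 interferon receptor and signalling genes, 7 rose in total RNA at an adjusted p under 0.05, as 27.2% of all genes did. The interferon gamma receptor subunit gene Ifngr2 was the 1 called, at 1.95, against 9.33% of all genes called higher. The median over the 9 was 0.60.

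From the start of H2-K1 to the end of H2-D1, a stretch of 1.271 megabases on chromosome 17, lay 129 other genes, of which 47 could be tested. In total RNA 3 were called higher (H2-DMb1, Notch4 and Apom) and 4 lower (H2-Ab1, H2-Eb1, Neu1 and Ly6g6e), near the 9.33% and 7.82% of all genes. Their median log2 change was -0.24, against -0.09 over all genes. Immediately around Psmb8, Tap1 starts 10.2 kb before it and Tap2 5.74 kb after it.

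**Figure D5:**
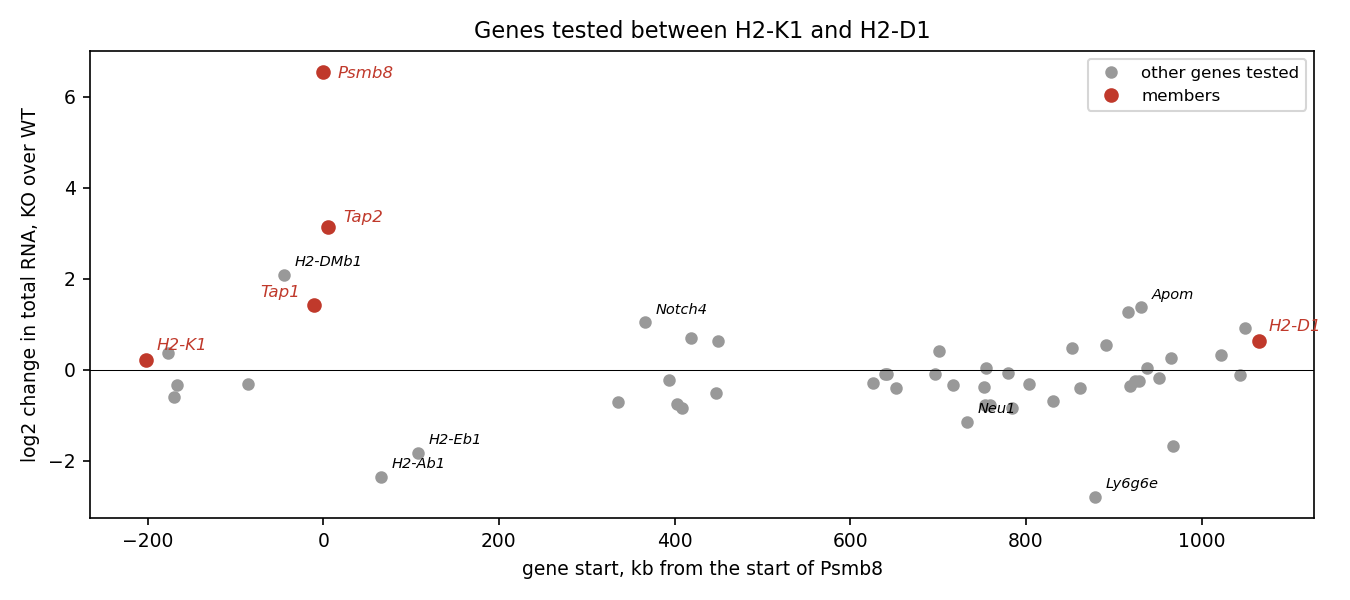
log2 change in total RNA from WT to KO of every gene tested from H2-K1 to H2-D1, against the distance of its start from that of Psmb8 in kilobases. Red points are listed genes and grey points the 47 others, of which the 7 called ones are named. Tap1 and Tap2 lie close to Psmb8, at 1.42 and 3.15, while H2-Ab1 and H2-Eb1, farther to the right, lie at -2.35 and -1.82.

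Over the 12 libraries, the genes whose log2 CPM ran most like that of Psmb8 were Anxa3 (Pearson r = 0.993), Zan (0.991), Mboat1 (0.991), Parp10 (0.991) and Lgals9 (0.990), of 14033 genes tested. Anxa3 lay at 0.366 to 0.697 CPM in WT total RNA and 61.8 to 65.6 CPM in KO. None of the 5 is on chromosome 17. The likeness is a description over 12 libraries that fall into 4 groups, so a gene with a large rise in KO can score high. Near absence from WT was not common to all 5. In WT total RNA Parp10 lay at 4.18 to 6.24 CPM, Zan at 2.19 to 3.90, Mboat1 at 0.854 to 1.72 and Lgals9 at 0.610 to 1.09. Of the listed genes Tap2 came nearest, at rank 91 with r = 0.969, then Tapbp at rank 387.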

How the data were processed

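The deposited table held whole-number read counts per gene, which the authors made by trimming with cutadapt 1.14, mapping unique reads with STAR 2.5.3a to mm10 and counting reverse-stranded reads with featureCounts 1.5.3 on GENCODE M14. Reads carry no molecular identifiers. Of 51467 gene identifiers, 51274 were matched to a symbol. The 92 spike-in entries held 1 count in all and were left out, so no absolute scaling was possible.

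Genes with at least 3 CPM in at least 3 of the 12 libraries (14033) were fitted with limma 3.58.1 on voom weights with TMM factors (edgeR 4.0.16, R 4.3.3) and 4 group means, after the design of the study. The interaction of assay and genotype measured the change in stability. The 4sU and total libraries of a replicate came from the same culture, which the main fit did not model. P-values were adjusted by Benjamini-Hochberg over all genes tested, and a gene was called at an adjusted p under 0.05 and a log2 change over 1. Alternatives were edgeR's quasi-likelihood test, DESeq2 1.42.0, limma-trend, other scalings and filters, no fold limit, replicate blocks and omission of single cultures. The fitting code was tested on simulated data. Groups came from the sample titles, which with the genotype label name Dgcr8; the source field of the KO samples reads DDX8KO. Depth limits the precision of the scarce genes, for which exact binomial counting intervals at 95% are given.

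The members and the lists were chosen with earlier results of these data known. Named are all members, the constitutive catalytic subunits, of each other list the called genes and at most the 4 largest changes that passed the test, the called genes of the MHC interval, the 5 genes most correlated with Psmb8, and Dgcr8. Other named genes (Calr, Canx, Stat2 and the cell type markers) were chosen after their values were seen. Promoters were searched on both strands, for exact matches to each pattern only. The result of 1 listed gene is not reported here.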

Additional observations from a re-analysis of the deposited data

Results flagged for a closer look

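The change from WT to KO differed between total and nascent RNA (the interaction in limma, adjusted over all 14033 genes) for 13 of the 76 genes of the pathway lists that were tested, a share near the 16.1% of all genes. With edgeR 12 of the 13 passed, Uggt1 did not (adjusted p = 0.0543), and Erap1 and H2-Eb1 did. Among the 10 listed genes this was Tapbp, where total RNA rose more, by 0.59 on the log2 scale. Total RNA also exceeded nascent RNA for Ifngr2 (1.10), Irf9 (0.90), Lnpep (0.43), Rfx5 (0.37), Pdia3 (0.33) and Uggt1 (0.22). It fell short for Socs3 (-1.80), Pomp (-0.48), Atf1 (-0.43), Psma7 (-0.37), Nfyb (-0.34) and Psmb7 (-0.33). Socs3, a feedback inhibitor of cytokine signalling, stands out among them: its nascent level went from 132, 133 and 142 CPM to 680, 546 and 551 CPM, while its total level went from 73.1, 72.2 and 76.1 to 97.7, 89.3 and 88.3 CPM. The cause of these differences was not tested.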

How the results depend on the processing

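The counts of 5 members called in total and 5 in nascent RNA kept to within 1.5 times under every alternative run except the filter of 3 CPM in all 12 libraries, which left 4 members to test and gave 2 and 2. Under the replicate block the counts were 5, 5 and 0 for stability. Same-numbered WT and KO libraries did not deviate together (mean correlation 0.00595 in total and -0.00579 in 4sU libraries). Same-numbered 4sU and total libraries, which share a culture, gave only 0.0739 in WT and 0.03 in KO. A measure this weak cannot show whether the numbers pair WT with KO libraries. With no fold limit, 1 member passed for stability. Of 380 alternative values of the single genes, 345 kept their direction and, where an adjusted p was given, their side of the threshold. Psmb8 had no adjusted p, so its values were judged by direction and size alone. The stability change reversed where it lay near 0 or rested on few WT reads: Psmb8 gave -0.93 with edgeR and -0.84 with edgeR and no filter (added after seeing the data), Tap2 gave -0.075 and -0.055 with these and -0.0018 with DESeq2, and without single cultures Tap2 ranged from -0.30 to 0.22 and Tap1 from -0.40 to 0.10. H2-K1 no longer passed the adjusted p in total RNA in 10 alternatives and its nascent change passed in 7, and H2-D1 passed in nascent RNA in 2. Called neighbours in the MHC interval numbered 13 with no filter and 4 with 3 CPM in all libraries. Psmb10 in KO total RNA was 25.7 CPM per kilobase with upper-quartile scaling. RLE scaling moved the median stability change of all genes from -0.09 to -0.0026. The fitted log2 change of Psmb8, 6.54 in total and 5.60 in nascent RNA, was 6.91 and 7.83 with edgeR, 7.22 and 6.96 with DESeq2 and 5.03 and 3.92 with limma-trend. At 0 to 1 reads per WT library, depth leaves the fold of Psmb8 wide in total RNA (40.4 to 1221) and without an upper limit in nascent RNA.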
